A study of Mus musculus with 16 samples.

Results

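The Wnt pathway was followed through 10 genes in the embryonic mouse adrenal gland: the ligand Wnt4, the R-spondin Rspo3, the receptor Lgr5, the feedback targets Axin2, Nkd1, Znrf3 and Apcdd1, the intracellular mediators Ctnnb1 and Lef1, and the secreted antagonist Frzb. They were taken by gene symbol, and the list, which names Frzb, was chosen with earlier results of these data known. The 10 genes carry 27 of the 45101 probe sets on the array, and 21 of these rose above the level set for dim probe sets. Each gene was tested through its brightest probe set, and all 10 were among the 13644 genes tested of 18193 with a probe set of their own.

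The study profiled whole fetal adrenals on Affymetrix Mouse430_2 arrays, 16 in all, with 4 arrays in each of 4 groups on a C57BL/6 background. The KO groups carried Sf1-Cre with Dicer lox/lox and were collected at E15.5 and at E16.5, which are days of embryonic development. The WT groups were litter mates without Cre, collected on the same days. The labels do not give their lox alleles, although every parent in the matings carried at least 1 lox allele of Dicer. Each array holds a pool of adrenals of 1 genotype, and the 4 pools of a genotype and stage came from 4 litters. Sf1-Cre acts in cells that express steroidogenic factor 1, so the medulla and resident blood cells of a KO gland are not targeted by it. Whether any capsule cells of a KO gland carry the deletion is not given by the labels. In whole glands, fewer cells of a type and less RNA per cell cannot be told apart.

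Wnt ligands bind Frizzled receptors with an Lrp co-receptor and keep beta-catenin, the product of Ctnnb1, from being degraded. Beta-catenin then enters the nucleus and switches on targets with Tcf and Lef factors, among them Axin2, Nkd1, Znrf3 and Apcdd1, which restrain the signal in turn. In the adrenal, R-spondin 3 from the capsule and Wnt4 from the outer cortex maintain the zona glomerulosa, the outermost steroidogenic layer. Frzb, also called secreted frizzled-related protein 3, carries a Frizzled-like domain and binds Wnt ligands outside the cell.

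The promoter sequences of the antagonist Frzb and of Axin2, the target most often used as a readout of the pathway, are shown first because Frzb had the largest difference of the 10 genes at both stages and Axin2 had none that passed. Both are the 250 bases before the annotated start in the RefSeq table of GRCm38.p6, 5′ to 3′ on the strand of the gene. Capitals mark the GC box GGGCGG. The Frzb window is chr2:80447397-80447646 on the minus strand, and the Axin2 window is chr11:108920099-108920348 on the plus strand.
Frzb: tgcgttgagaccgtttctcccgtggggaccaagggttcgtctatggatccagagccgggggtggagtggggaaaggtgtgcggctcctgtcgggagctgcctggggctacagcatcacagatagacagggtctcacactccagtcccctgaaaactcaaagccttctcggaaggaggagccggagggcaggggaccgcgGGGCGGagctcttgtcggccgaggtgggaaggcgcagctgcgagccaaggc
Axin2: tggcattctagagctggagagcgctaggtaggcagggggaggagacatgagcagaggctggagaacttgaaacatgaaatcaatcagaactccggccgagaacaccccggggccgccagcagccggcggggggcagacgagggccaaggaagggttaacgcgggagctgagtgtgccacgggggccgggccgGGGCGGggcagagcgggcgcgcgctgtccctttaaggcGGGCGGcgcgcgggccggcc
The Frzb window had 64.4% G and C with 16 CpG pairs, and the Axin2 window 69.2% with 24, where the medians of all windows were 52.4% and 6. The GC box was searched on both strands and occurred in 32.7% of all 32851 windows of that length, 1 time in the Frzb window and 2 times in that of Axin2. A Tcf/Lef core, spelled CTTTG followed by A or T in both of the next places, occurred in 14.8% of windows, and a binding site for steroidogenic factor 1, spelled CAAGGTCA or CAAGGCCA, in 3.28%. None of these was in the windows shown, so no motif overlapped another there. Of the 10 genes, 6 had windows in the table, 10 in all, and a Tcf/Lef core was in 1 of the 10, a Lef1 window. A match describes letters only.

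Dicer1, the deleted gene, was lower in KO glands by 0.35 at E15.5 and by 0.36 at E16.5 on the log2 scale. Its probe set 1460571_at ranged from 8.50 to 8.64 in WT and from 8.0 to 8.36 in KO arrays at E15.5, and from 8.45 to 8.83 and from 8.09 to 8.42 at E16.5, without overlap at either stage. The adjusted p (limma, Benjamini-Hochberg over all genes tested, threshold 0.05) was 0.0638 and 0.0414. The labels and files do not place the probe sets inside or outside the deleted exons. Mean signal over all probe sets was 6.31 to 6.32 in the 8 WT and 6.35 to 6.37 in the 8 KO arrays, and the median difference of all genes, KO minus WT, was 0.07 at E15.5 and 0.08 at E16.5. A small difference above 0 is therefore read against these medians. One array, WT_E16.5 replicate 2, stood apart in the control probe sets of Gapdh and Actb: their 3′ signal exceeded the 5′ signal by 3.15 log2 units, against 0.19 to 1.62 in the other 15. Values without it stand beside several E16.5 results.

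Frzb fell in KO glands at both stages and was the only one of the 10 genes that passed at E15.5. With the test above, 1 of the 10 genes passed at E15.5, against 5.86% of all genes tested, 3.69% called higher and 2.18% called lower. At E16.5, 2 of the 10 passed, Frzb lower and Rspo3 higher, against 10.5% of all genes, 6.99% called higher and 3.55% called lower. The median difference of the 10 genes was 0.07 at E15.5 and 0.20 at E16.5. At an unadjusted p under 0.05 the counts were 2 and 3, where 19.0% and 24.0% of all genes reached that level. With 10 genes, these counts are not read as a result about the list, and the values of each gene follow.

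**Figure D1:**
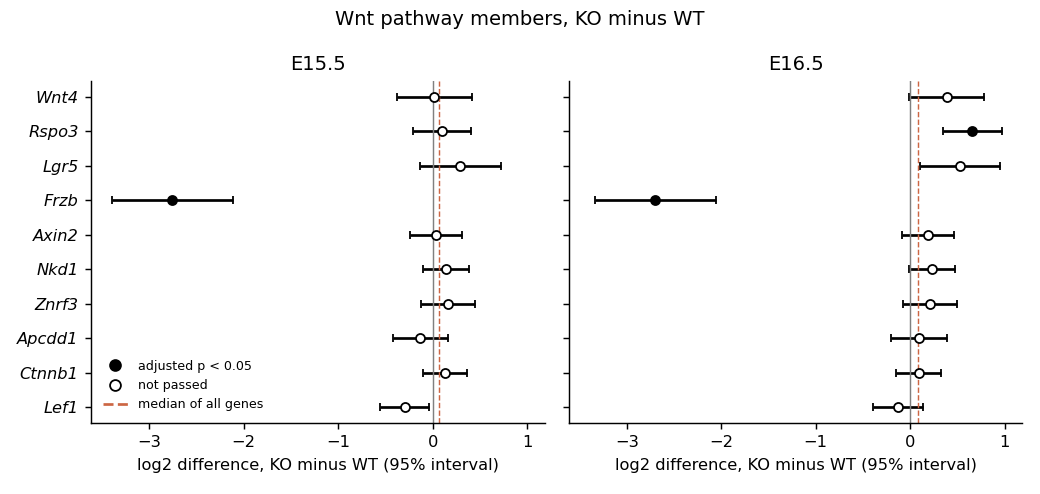
Difference in log2 signal between KO and WT (KO minus WT, x axis) for the 10 genes at E15.5 (left) and E16.5 (right), with 95% intervals from the limma fit over all 16 arrays; filled points passed at an adjusted p under 0.05 and the dashed line is the median of all genes tested. Frzb lies near -2.76 and -2.70, Rspo3 at 0.66 passes at E16.5, and the other points lie between -0.29 and 0.53.

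In the secreted antagonist Frzb, probe set 1416658_at read 10.25, 10.62, 9.70 and 11.29 on the log2 scale in the 4 WT arrays at E15.5. The 4 KO arrays of that stage read 7.73, 7.56, 7.54 and 8.0. Every KO array was below every WT array by a wide margin, and the WT arrays varied more than the KO arrays. The difference was -2.76 (SE 0.30, 95% interval -3.40 to -2.12, n = 4 and 4), a signal 6.76-fold lower (interval 4.34 to 10.5), with a limma adjusted p of 2.97e-05. At E16.5 the WT arrays read 11.04, 10.29, 11.36 and 11.47, and the KO arrays 7.88, 8.26, 8.80 and 8.43. The groups were again apart, with the lowest WT value in the array that had the large 3′ excess. The difference was -2.70 (SE 0.30, interval -3.34 to -2.06), 6.49-fold lower, with a limma adjusted p of 1.97e-05. Without WT_E16.5 replicate 2 it was -2.95. Frzb had the 2nd lowest difference of the 13644 genes at E15.5 and the 5th lowest at E16.5.

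The second Frzb probe set, 1448424_at, gave the same direction from a lower level. At E15.5 it read 7.67, 8.44, 6.70 and 9.03 in WT and 4.30, 4.37, 4.30 and 4.56 in KO arrays. At E16.5 it read 8.71, 6.74, 9.11 and 9.47 in WT and 4.02, 4.33, 5.61 and 5.02 in KO arrays. Of the 8 KO arrays, 1 was above the 40th percentile of its array (5.11 to 5.21), the level that a probe set had to exceed on 4 arrays to be tested. The differences were -3.58 (SE 0.54, adjusted p 0.000921 in a limma fit of all probe sets) and -3.76 (SE 0.54, adjusted p 0.000394). The second became -4.35 without WT_E16.5 replicate 2. Since the KO values lie among the dim probe sets, these differences are limited by the floor of the array on the KO side.

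**Figure D2:**
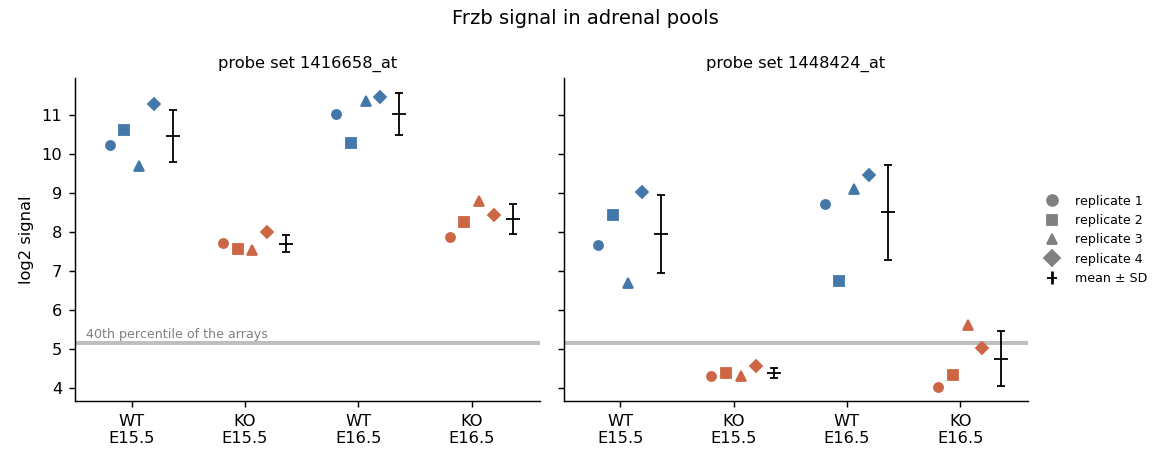
Log2 signal (y axis) of the Frzb probe sets 1416658_at (left) and 1448424_at (right) in the 4 groups, 1 point per array with the mean ± SD beside it; the grey band is the 40th percentile of the arrays (5.11 to 5.21). In both probe sets every KO array lies below every WT array of its stage, and with 1448424_at 7 of the 8 KO arrays lie below the band.

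The order of the Frzb means was WT at E16.5 (11.04 ± 0.53, SD, n = 4), WT at E15.5 (10.46 ± 0.67), KO at E16.5 (8.34 ± 0.38) and KO at E15.5 (7.71 ± 0.21). The step between the KO and the WT groups exceeded the spread of the arrays. The steps between stages did not pass: E16.5 minus E15.5 was 0.58 in WT (SE 0.30, limma adjusted p 0.689) and 0.64 in KO (SE 0.30, limma adjusted p 0.531). The KO effect differed between the stages by 0.06 (95% interval -0.84 to 0.96), a wide interval that 4 pools a group could not narrow.

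Cell type markers moved beside Frzb. Those of the zona glomerulosa were lower in KO for 4 of 4 genes at E15.5 (median -1.58) and 3 of 4 at E16.5 (median -1.62). Their mean level per array was 8.88 to 9.72 in WT and 7.64 to 8.19 in KO at E15.5, and 9.20 to 9.80 and 7.70 to 8.05 at E16.5. Among them Shh, the hedgehog ligand of the outer cortex, fell by 1.54 and 1.18, and the angiotensin receptor gene Agtr1b fell by 1.62 and 2.05. Of 7 general steroidogenic cortex genes, 2 and 4 were lower by the test and none higher. Their differences were mixed, from -0.94 to 0.56 at E15.5 (median -0.33) and from -1.58 to 0.19 at E16.5 (median -0.40). The highest at both stages was Nr5a1, the gene of steroidogenic factor 1, which did not pass. Star was also above 0 (0.19 and 0.003) and did not pass. Frzb is also known from cartilage, where Acan, Matn1 and Comp, 3 of the 5 markers taken, were below the filter on dim probe sets, and Col2a1 and Sox9 did not pass at either stage. Skeletal muscle markers varied widely within groups, from 5.83 to 10.5 in WT at E16.5. None of the 4 passed at either stage, with medians of 0.12 and -1.57. The part of the glomerulosa genes in the Frzb difference was not tested.

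The 5 genes whose values over the 16 arrays had the highest Pearson correlation with Frzb were Akr1d1 (0.965), Tmem35a (0.961), Etfrf1 (0.959), Shh (0.957) and Nr0b1 (0.951). Akr1d1 encodes a steroid 5-beta-reductase and Nr0b1 the nuclear receptor Dax1. The arrays form separate groups by genotype, and any gene that differs strongly between WT and KO scores highly here. Within the 8 WT arrays the same 5 correlations were 0.875, 0.582, 0.688, 0.554 and 0.744. Within the 8 KO arrays they were 0.187, 0.762, 0.757, 0.760 and 0.772. Among all genes, these correlations ranked from 33 to 1348 within the WT arrays and from 532 to 5167 within the KO arrays. Many other genes thus correlated more highly with Frzb within a genotype. Akr1d1 was above the filter level on 0 of the 8 KO arrays (3.01 to 3.62), so its value there is a correlation among dim readings. Ranked instead on deviations from the group means, Anxa8 (0.911), Ctso (0.901), Adal (0.893), Scg2 (0.886) and Klf2 (0.885) came first, and no gene stood in both lists. These are descriptions over shared arrays, not tests.

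**Figure D3:**
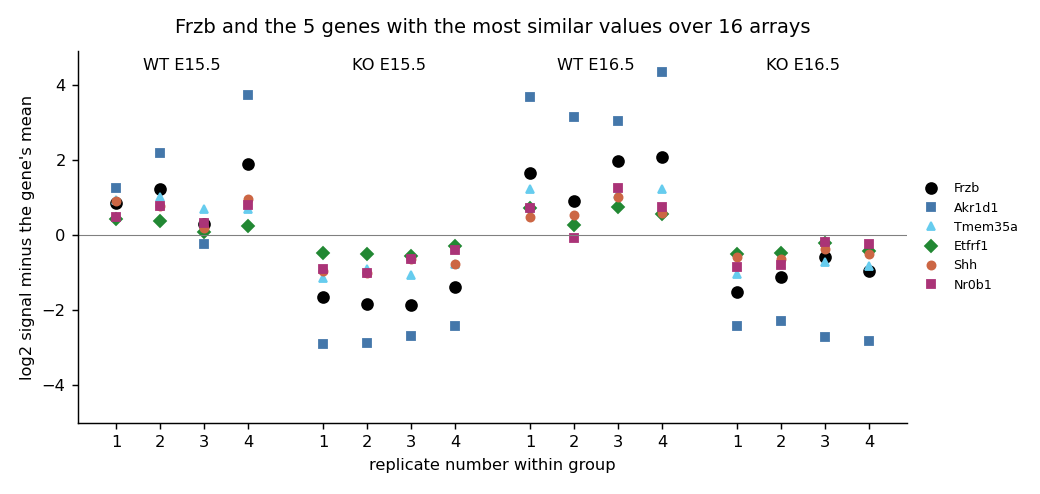
Log2 signal minus the mean of the gene over all 16 arrays (y axis) for Frzb and the 5 genes with the highest correlation with it, by group and replicate number (x axis; replicates have no order). All 6 genes lie below their mean in all 8 KO arrays, and the spread among the WT arrays is widest for Akr1d1.

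The R-spondin Rspo3, a secreted protein that raises the number of Frizzled receptors at the cell surface, was higher in KO glands at E16.5. Its probe set 1455607_at read 9.15, 9.33, 9.58 and 9.24 in WT and 9.47, 9.31, 9.22 and 9.70 in KO arrays at E15.5. These groups overlapped, with 1 KO array above all WT arrays, and the difference was 0.10 (SE 0.15, limma adjusted p 0.800). At E16.5 the WT arrays read 8.91, 8.65, 9.23 and 9.04, and the KO arrays 9.45, 9.47, 9.63 and 9.91. Every KO array was then above every WT array. The difference was 0.66 (SE 0.15, 95% interval 0.35 to 0.97), 1.58-fold, with a limma adjusted p of 0.00838. It was 0.56 without WT_E16.5 replicate 2, the lowest array of its group, and still passed.

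Between the stages Rspo3 in WT glands went from a mean of 9.32 to 8.96, a difference of -0.37 (SE 0.15, limma adjusted p 0.479), and in KO glands from 9.42 to 9.62, a difference of 0.19 (limma adjusted p 0.782). Both steps widened the gap between the groups, and neither passed. The KO effect was larger at E16.5 than at E15.5 by 0.56 (95% interval 0.12 to 1.00, unadjusted p of the limma contrast 0.0158), which did not pass after adjustment. Of all genes, 0.0% passed that contrast and 1.89% had an unadjusted p under 0.05.

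Markers of the capsule and its mesenchyme, the known source of R-spondin 3, did not pass in 7 of 7 genes at either stage. Their median difference was 0.08 at E15.5 and 0.24 at E16.5. Their mean level per array at E15.5 was 9.36 to 9.80 in WT and 9.42 to 10.05 in KO glands, which overlapped. At E16.5 it was 9.25 to 9.48 and 9.51 to 9.73, which did not overlap. Of all genes taken singly, 15.2% did not overlap at E16.5, and the median difference of all genes was 0.08. This separation is therefore not read as a result about the capsule. Macrophage markers were higher in KO for 4 of 8 genes at E15.5 and 8 of 8 at E16.5, with mean levels at E16.5 of 7.93 to 8.68 in WT and 9.31 to 9.84 in KO. The part of either in the Rspo3 difference was not tested. The limma test was also run against a difference of 0.16 log2 units at E16.5 and 0.17 at E15.5 in place of 0. These are the median absolute differences, KO minus WT, of the 4549 genes below the filter, whose median signed differences were 0.05 and 0.08. Tested this way at E16.5, the adjusted p of Rspo3 was 0.0469, close to the threshold, and that of Frzb 3.28e-05. The second Rspo3 probe set was dim on all 16 arrays and was not tested.

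The ligand Wnt4, which the outer cortex expresses under beta-catenin, did not pass at either stage. Probe set 1450782_at read 9.86, 9.57, 9.85 and 10.63 in WT and 9.86, 9.93, 10.10 and 10.09 in KO arrays at E15.5. The KO values lay inside the WT range, and the difference of 0.02 (95% interval -0.38 to 0.42) turned negative after quantile normalization and after 75th percentile centring of the arrays. At E16.5 the WT arrays read 9.91, 9.61, 10.26 and 9.93, and the KO arrays 10.35, 10.05, 10.36 and 10.50. Here 3 of the 4 KO arrays were above all WT arrays, and the difference was 0.39 (interval -0.01 to 0.79, limma adjusted p 0.220). A second Wnt4 probe set gave -0.11 and 0.26.

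Lgr5, an R-spondin receptor, was the member with the next largest difference. Probe set 1450988_at ranged from 7.12 to 7.76 in WT and from 7.44 to 7.92 in KO arrays at E15.5, a difference of 0.30 (interval -0.13 to 0.72). At E16.5 the WT arrays read 7.25, 7.62, 7.45 and 7.93, and the KO arrays 8.09, 7.64, 8.58 and 8.07. The KO array at 7.64 lay within the WT range and the other 3 above it. The difference was 0.53 (interval 0.11 to 0.96, limma adjusted p 0.107). Over the 8 fits that each left out 1 array of the stage it was 0.37 to 0.68 (limma adjusted p 0.0449 to 0.311). The lowest of these p-values came without KO_E16.5 replicate 2, the KO array within the WT range.

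None of the 4 feedback targets passed at either stage. Axin2, a scaffold of the beta-catenin destruction complex, read 7.86, 7.72, 8.04 and 8.20 in WT and 7.90, 7.85, 8.31 and 7.91 in KO arrays at E15.5, and 7.95, 8.03, 8.08 and 7.85 against 8.44, 8.14, 8.02 and 8.06 at E16.5. The groups overlapped at both stages. The differences were 0.03 (95% interval -0.24 to 0.31), which turned negative with quantile normalization and with 75th percentile centring, and 0.19 (interval -0.08 to 0.47, limma adjusted p 0.413). The E16.5 interval is from the values before rescaling, which hold the median difference of all genes of 0.08, so its bounds depend on the scaling. Over the alternatives of processing and left-out arrays, the Axin2 difference at E16.5 was 0.03 to 0.24. A second Axin2 probe set was dim and not tested.

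Nkd1, which binds Dishevelled, ranged from 7.98 to 8.39 in WT and 8.11 to 8.56 in KO arrays at E15.5. At E16.5 it read 8.34, 8.41, 8.26 and 8.23 in WT and 8.68, 8.57, 8.49 and 8.43 in KO arrays, where every KO array was above every WT array. Its difference of 0.23 at E16.5 (interval -0.01 to 0.48) had a limma adjusted p of 0.227. Of the 10 genes, 2 had all KO above all WT arrays at E16.5, Rspo3 and Nkd1, and 1 had all KO below, Frzb, where 10.4% and 4.76% of all genes did and 15.2% in either direction. At E15.5, 0 had all KO above and 1, Frzb, all KO below, against 9.8% and 4.7% of all genes and 14.5% in either direction. The other 3 Nkd1 probe sets gave -0.02, -0.38 and -0.06 at E16.5, the opposite sign to the brightest probe set. Without WT_E16.5 replicate 2 they gave 0.0017, -0.30 and 0.017, so that 1 kept the opposite sign, and the brightest gave 0.27.

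Znrf3, a ubiquitin ligase that removes Frizzled receptors, ranged from 8.30 to 8.49 in WT and 8.40 to 8.86 in KO arrays at E15.5, and from 8.26 to 8.60 and 8.38 to 8.97 at E16.5. The differences were 0.16 (interval -0.12 to 0.45) and 0.21 (interval -0.07 to 0.50). Apcdd1, a membrane inhibitor, gave -0.13 (interval -0.42 to 0.16) and 0.09 (interval -0.20 to 0.39) with its brightest probe set, 1454822_x_at, and the groups overlapped. Its other 4 tested probe sets gave -0.02 to -0.26 at E16.5. The dimmest of them, 1418383_at, read 5.51, 4.57, 5.52 and 5.51 in WT and 4.89, 5.21, 4.99 and 4.96 in KO arrays at E16.5. The low WT value was in replicate 2, the array with the 3′ excess, and without it the difference was -0.50 with a limma adjusted p of 0.0139. Of the 5 tested Apcdd1 probe sets it was the only one that passed in that fit. Probe set 1418383_at was above the filter level on 7 arrays, 3 WT and 0 KO at E15.5 and 3 WT and 1 KO at E16.5. It thus entered the test mainly through the WT arrays, in which it was higher, and its KO values lay near the floor.

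Ctnnb1 ranged from 13.12 to 13.34 in WT and 13.32 to 13.51 in KO arrays at E15.5, and from 13.01 to 13.51 and 13.16 to 13.45 at E16.5. Its differences were 0.13 (interval -0.11 to 0.37) and 0.09 (interval -0.15 to 0.33), and 2 dimmer probe sets gave -0.30 and -0.07 at E16.5 with wide intervals. Without WT_E16.5 replicate 2 the brightest gave 0.019 and the dimmer ones -0.54 and -0.66, and none passed. Lef1, the nuclear partner of beta-catenin, read 7.53, 7.52, 7.45 and 7.90 in WT and 7.45, 7.31, 7.28 and 7.18 in KO arrays at E15.5. The KO values were lower, with 1 touching the WT range, and the difference was -0.29 (interval -0.55 to -0.03, limma adjusted p 0.195). At E16.5 the groups overlapped, from 7.56 to 7.80 in WT and from 7.29 to 7.80 in KO arrays, with a difference of -0.13 (interval -0.39 to 0.13).

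**Figure D4:**
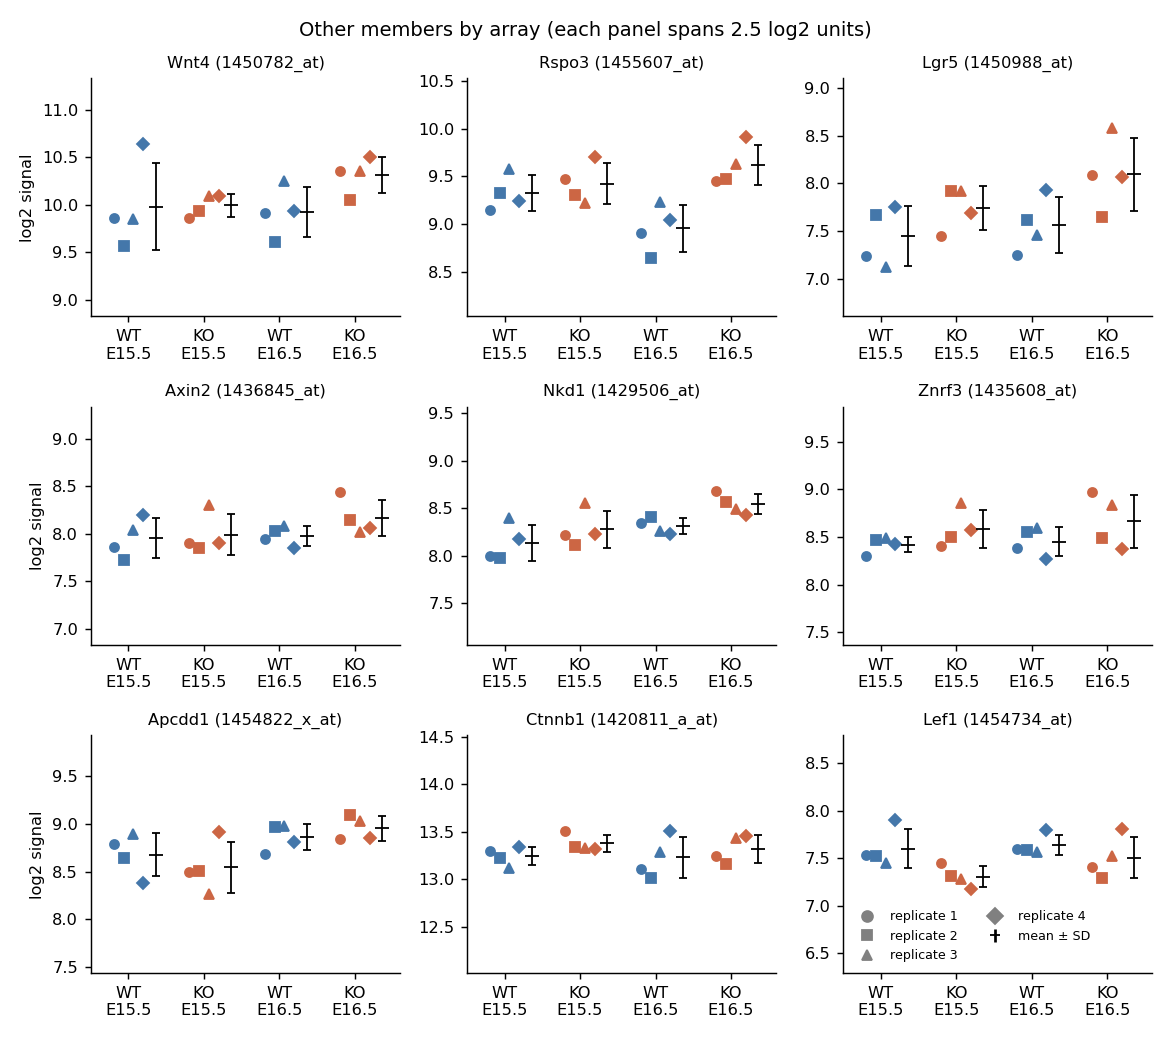
Log2 signal (y axis) of the other 9 genes in the 4 groups, 1 point per array with the mean ± SD beside it; each panel spans 2.5 log2 units, and levels are not compared between panels. Rspo3 and Nkd1 at E16.5 are the panels in which all 4 KO points lie above all 4 WT points.

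Across the further probe sets of the 10 genes, 11 could be tested beside the brightest ones, and 1 passed at each stage, that of Frzb. At E15.5, 7 had the sign of the brightest probe set and 4 the opposite sign, and at E16.5 the counts were 2 and 9, or 4 and 7 without WT_E16.5 replicate 2. Without Frzb their differences lay between -0.32 and 0.24 at E15.5 and between -0.38 and 0.26 at E16.5. From E15.5 to E16.5 itself, 0 of the 10 genes passed in WT and 0 in KO, where 0.0953% and 0.901% of all genes did. At an unadjusted p under 0.05 there was 1 in WT, Rspo3, and 2 in KO, Apcdd1 (0.41) and Nkd1 (0.27), against 7.85% and 9.51% of all genes.

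A wider list of 98 Wnt pathway genes, which holds the 10, had 80 tested genes. Of the rest, 16 were below the filter, among them the ligands Wnt1 and Wnt3, and Kremen2 and Tcf7 were not analysed here. At E15.5, 4 of the 80 passed (5.0%, against 5.86% of all genes), 3 higher and 1 lower. At E16.5, 6 passed (7.5%, against 10.5%), 5 higher and 1 lower. The list medians were 0.08 and 0.10, close to those of all genes. Among 17 receptors, 11 cytoplasmic, 12 nuclear, 8 membrane or feedback inhibitor and 5 other target genes, 0 passed at either stage. At an unadjusted p under 0.05 there were 3, 0, 2, 0 and 0 at each stage in those groups, where 19.0% and 24.0% of all genes reached that level. The 8 inhibitors, which include the 4 feedback targets above, all had a difference above 0 at E16.5 (0.09 to 0.23). Of all genes, 64.3% were above 0. All 8 stayed above 0 with quantile normalization (lowest 0.0012), 75th percentile centring (lowest 0.0037) and median centring (lowest 0.065). Of the 13644 genes, 7269, 6593 and 8112 were above 0 with those scalings. With array weights Apcdd1 was just below 0. The other tested probe sets of Apcdd1 and Nkd1 were below 0 at E16.5 with all arrays in the fit. At E15.5, 5 of the 8 were above 0, and 3, 3 and 4 with quantile normalization, 75th percentile and median centring. The 5 other targets, Sp5, Ccnd1, Myc, Cd44 and Bmp4, were all below 0 at E16.5 under each of these scalings, with Sp5 at -0.26 and Ccnd1 at -0.07, and none passed.

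Of 11 secreted antagonists tested, Frzb among them, 3 passed at E15.5, 2 higher and 1 lower, and 4 at E16.5, 3 higher and 1 lower, against 5.86% and 10.5% of all genes. At E16.5, 5 of the 11 had a difference below 0. The other gene that passed beside Frzb and Rspo3 was the ligand Wnt16. Sfrp5, of the same family as Frzb, ranged from 5.71 to 6.01 in WT and 6.21 to 6.47 in KO arrays at E15.5, and from 5.75 to 6.04 and 6.21 to 6.42 at E16.5. With this probe set it rose by 0.41 and 0.35 (limma adjusted p 0.0221 and 0.0341). A second Sfrp5 probe set gave 0.09 and 0.16 and did not pass (adjusted p 0.863 and 0.669 in a limma fit of all probe sets). Sfrp4 rose by 0.53 at E15.5 (adjusted p 0.0308) and gave 0.08 at E16.5. The remaining relatives did not pass: Sfrp1 gave 0.01 and 0.40, and Sfrp2 gave 0.25 and -0.01. Other Sfrp1 probe sets gave -0.57 to 0.28 at E15.5 and 0.03 to 0.56 at E16.5, and none passed. Of the 5 genes of this family, Frzb was the only one lower in KO by the test. Dkk2 and Dkk3, of the Dickkopf family, rose by 0.64 and 0.55 at E16.5 (limma adjusted p 0.0433 and 0.0143). A second Dkk3 probe set gave 0.40 at E16.5 and did not pass (adjusted p 0.181 in the limma fit of all probe sets).

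The ligand Wnt16 gave 0.52 and 0.63 (limma adjusted p 0.0119 and 0.00198). It was above the filter level on 4 arrays in all, each a KO array, and thus entered the test only through the group in which it was higher. With the limma test against 0.17 and 0.16 log2 units in place of 0, Frzb alone passed of the 80 at E15.5, where 2.48% of all genes did, and Frzb, Rspo3 and Wnt16 at E16.5, where 4.0% did. When each array of a stage was left out in turn, Sfrp4 lost its call in 6 of 8 fits, with values of 0.48 to 0.58, and kept it without WT_E15.5 replicate 2 or KO_E15.5 replicate 4. Sfrp5 lost its call at E15.5 without KO_E15.5 replicate 1 (0.35), WT_E15.5 replicate 2 (0.41) or WT_E15.5 replicate 3 (0.34), and at E16.5 in 6 of 8 fits (0.28 to 0.39 over the 8), the exceptions being WT_E16.5 replicate 2 and KO_E16.5 replicate 4. Dkk2 passed in 1 of 8 fits, that without KO_E16.5 replicate 1 (0.80). Frzb, Rspo3 and Dkk3 kept theirs in all 8 fits of each stage at which they passed. Wnt16 did so too, but these fits kept the genes tested on all 16 arrays and did not apply the filter again. Without any 1 of its 4 arrays above the filter level, Wnt16 would not have been tested, so its calls there are not read as stable. The antagonist Wif1 had differences of -0.80 (95% interval -1.45 to -0.15, limma adjusted p 0.153) and -0.59 (interval -1.24 to 0.06, limma adjusted p 0.262).

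**Figure D5:**
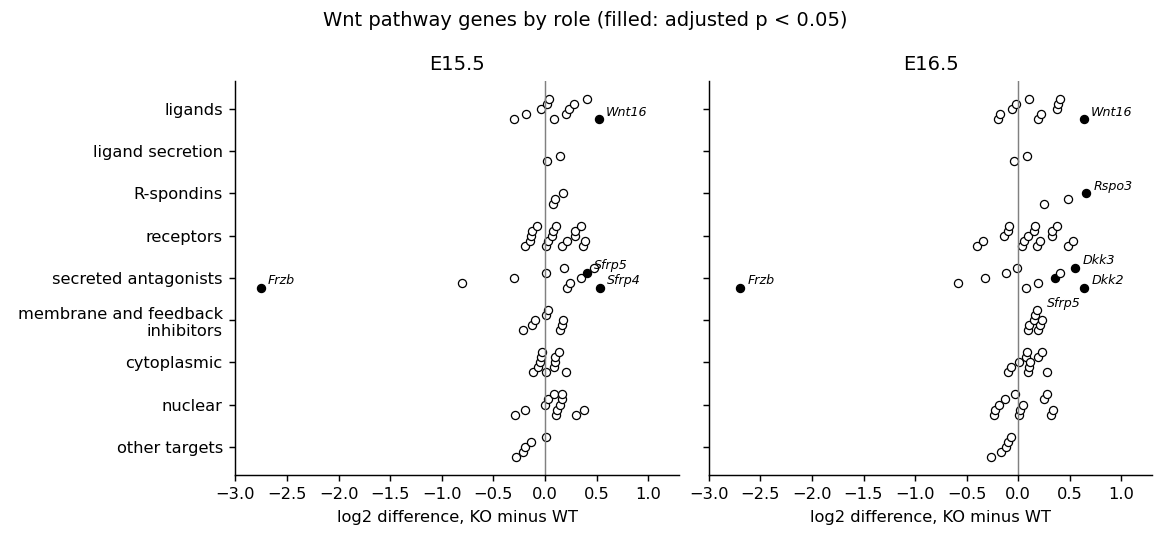
Difference in log2 signal between KO and WT (KO minus WT, x axis) for the 80 tested Wnt pathway genes by role (y axis) at E15.5 (left) and E16.5 (right), 1 point per gene; filled, named points passed at an adjusted p under 0.05. Frzb lies alone below -2, and the named genes other than Frzb lie between 0.35 and 0.66.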

How the data were processed

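The deposited values are log2 signals of 45101 probe sets on 16 arrays. RMA and limma are named per the submitters' processing notes, with no versions. Probe sets were named from the platform annotation updated by gene ID: 34945 had 1 symbol, 932 several and 9160 none, and 64 were controls. Each gene was represented by its brightest probe set on average, and tested if that set exceeded the 40th percentile on 4 or more arrays.

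All 16 arrays were fitted with limma 3.58.1 in R 4.3.3 as 4 group means with eBayes. P-values were two-sided and adjusted by Benjamini-Hochberg over all 13644 genes, with a threshold of 0.05. The scripts were tested on simulated data. Precision is limited by 4 pools a group. Arrays of a group correlated at 0.975 to 0.996, so no 2 were identical.

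Named are the 10 genes, Dicer1, the Sfrp family, wider-list genes that passed, and the 5 genes most like Frzb by each measure. Wif1, Sp5, Ccnd1, Wnt10b and Rspo1 were named after their values were seen, as were marker genes. The members and lists were chosen with earlier results of these data known. Alternatives covered scaling, filter, probe set, weights, stage-only fits, the replicate block and leave-one-out.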

Additional observations from a re-analysis of the deposited data

Results flagged for a closer look

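Of 60 groups of 4 arrays looked at in 15 genes, 4 held 1 array whose gap to the nearest of the others took up an unusually large part of the range of the group. Chance alone gives about 1 such group in 20. Axin2 read 8.31 in KO_E15.5 replicate 3, and the other 3 arrays of that group read 7.85 to 7.91. Ctnnb1 read 13.51 in KO_E15.5 replicate 1, with the others at 13.32 to 13.35. Lef1 read 7.80 in WT_E16.5 replicate 4, with the others at 7.56 to 7.60. Sfrp5 read 5.75 in the same array, below the others at 6.01 to 6.04. None of these groups was one of Frzb or Rspo3.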

How the results depend on the processing

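Frzb passed at both stages in all 19 alternatives of each stage (-3.58 to -2.48 at E15.5, -3.76 to -2.54 at E16.5), and Rspo3 passed at E16.5 in all 18 (0.50 to 0.75). Of the 10 genes, 1 passed at E15.5 in every alternative, and at E16.5 2 passed, or 4 with array weights, which added Lgr5 and Nkd1, and 2 to 3 in leave-one-out fits. The share of all genes that passed with array weights is not given here. The rise to 4 is therefore not read as a result about the 10 genes. For stages and for the difference between the KO effects, 0 passed throughout.

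Of the wider list, 4 passed at E15.5: 1 with 75th percentile centring, 1 with the test against 0.17 log2 units in place of 0, 8 with no filter, 2 with a stricter filter, 8 with array weights and 2 to 4 in leave-one-out fits (2 without KO_E15.5 replicate 1 or WT_E15.5 replicate 3). At E16.5, 6 passed: 3 with the test against 0.16 log2 units in place of 0, 11 with no filter, 3 with a stricter filter, 26 with array weights and 4 to 8 in leave-one-out fits. The cause was not tested, except that a filter changes which genes are tested. Apart from the tests against 0.17 and 0.16 log2 units, the share of all genes passing under these settings is not given here. These counts are therefore not read as a result about the list.

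Within each single alternative, values that changed sign were all uncalled. The Apcdd1 probe set 1418383_at passed at E16.5 only with WT_E16.5 replicate 2 also left out (-0.50, limma adjusted p 0.0139). At E15.5, Wnt4 gave -0.066 with quantile normalization, -0.060 with 75th percentile centring, -0.11 with its other probe set and -0.12 to 0.24 in leave-one-out fits. Axin2 gave -0.037 and -0.043 with those scalings and -0.071 to 0.11 in leave-one-out fits. Nkd1 gave -0.098, -0.31 and -0.035 with other probe sets, and at E16.5 -0.021, -0.38 and -0.057. At E16.5, Apcdd1 gave -0.0068 with array weights and -0.040, -0.26, -0.061 and -0.023 with other probe sets. Ctnnb1 gave -0.30 and -0.070 with other probe sets. Lef1 gave 0.014 with array weights, and Sfrp4 gave -0.010 with 75th percentile centring and -0.022 to 0.20 in leave-one-out fits.

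The labels give WT and KO arrays the same replicate numbers without tying a number to a litter. Deviations of same-numbered arrays correlated at -0.39 to 0.39 at E15.5 and -0.20 to 0.45 at E16.5. With the replicate number as a block, 1 and 2 of the 10 genes and 4 and 6 of the wider list passed; Sfrp4 at E15.5 and Dkk2 at E16.5 lost their calls (adjusted p 0.080 and 0.060), and Wnt10b at E15.5 and Rspo1 at E16.5 gained one (limma adjusted p 0.0495 and 0.0087).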
